A study of Homo sapiens with 6 samples.

Results

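The 10 genes described here encode parts of the cornified envelope, or accompany its formation: IVL (involucrin), the small proline-rich protein genes SPRR1A, SPRR1B, SPRR2A, SPRR2D and SPRR3, the transglutaminase genes TGM1 and TGM3, CNFN (cornifelin) and RHCG (an ammonium transporter of the Rh family). They were taken by symbol from a table of 61859 genes, in which each symbol had a row of its own. The table covers 6 samples of OSC19SSZR, a human oral squamous carcinoma line that resists sulfasalazine. Group 1 received control siRNA (n = 3) and group 2 received siRNA directed at FOXA1, a forkhead transcription factor (n = 3). Both were transfected with a lipid reagent, and RNA was taken 48 h later. Both groups share the resistant background, and no sample of a sulfasalazine-sensitive line was analysed here. The labels do not say whether replicates were separate cultures or repeats of the same one, so the spread behind each p-value may be technical.

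The cornified envelope is the tough, insoluble protein shell that replaces the plasma membrane of a squamous cell at the end of its differentiation. Transglutaminases build it by joining glutamine and lysine side chains of precursor proteins, first on a scaffold at the desmosomes and then with small proline-rich proteins as bridges. In the mouth and oesophagus the shell gives the lining its mechanical resistance, and in squamous carcinomas its genes are used as a readout of how far the tumour cells still mature.

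Little of this set was expressed. No read was counted for SPRR2A, SPRR2D and TGM3 in any of the 6 libraries. A further 5 members (IVL, SPRR1A, SPRR1B, SPRR3 and RHCG) had reads but a mean normalized count under 10, the minimum set for testing. Only TGM1 and CNFN could be tested, and neither passed. Of all 61859 genes in the table, of every gene type, 27396 had no read and 16003 had reads but a mean under 10. That left 18460 to be tested, so a lack of reads is not particular to this set. Normalized counts are read counts divided by a size factor that corrects for library depth. The libraries held 16510125 to 25732569 reads, and the 10 genes together received 366 of them over all 6, of which TGM1 and CNFN took 264 (72.1%).

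FOXA1 itself, the check of the knockdown, was at 1477, 1378 and 1459 normalized counts in the controls, against 247, 192 and 189 after FOXA1 siRNA. KRT5, a keratin of basal squamous cells, ranged from 27416 to 32174 over the 6 libraries, and TP63, the master regulator of squamous identity, from 3633 to 5029. KRT14, the usual partner of KRT5, ranged from only 16.1 to 77.2, and KRT6A from 38.3 to 802, its highest value being in control siRNA replicate 3. Of the markers of other cell types, 1 of 6 for fibroblasts (COL1A1), 1 of 5 for immune cells (CD68) and 1 of 3 for endothelium (CDH5) reached a mean of 10, and the fibroblast markers DCN and LUM had no read. COL1A1 (log2 fold change -0.52 ± 0.15) and CDH5 (-0.94 ± 0.08) were called lower with FOXA1 siRNA and CD68 was not called. Of the 8 squamous markers 3 were called higher and 2 lower, beside 26.8% of all genes tested called higher and 25.0% lower. The part of these markers in the results was not tested. In bulk RNA, fewer cells that express a gene and less of its RNA per cell cannot be told apart.

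**Figure D1:**
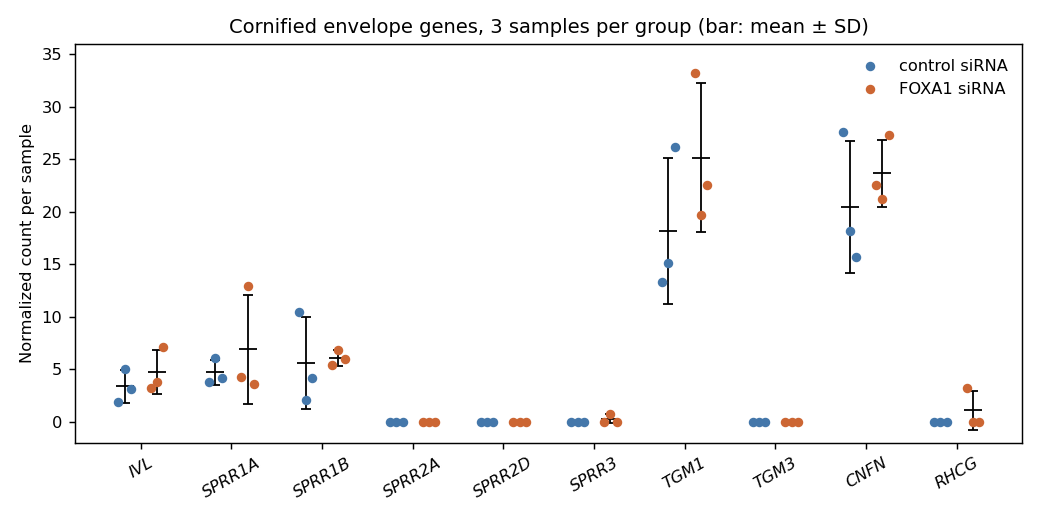
Normalized counts of the 10 genes in each sample (points), with control siRNA in blue and FOXA1 siRNA in orange, and the mean ± SD of each group as bars. The points of the groups overlap for every gene with reads, TGM1 and CNFN lie highest, and SPRR2A, SPRR2D and TGM3 lie at 0.

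Among the precursors, IVL encodes involucrin, the long glutamine-rich protein laid down early under the membrane. The 3 control samples had 1.90, 5.04 and 3.14 normalized counts of IVL, and the 3 FOXA1 siRNA samples had 3.22, 3.79 and 7.12. The highest value was in FOXA1 siRNA replicate 3 and the lowest in control siRNA replicate 1, and the ranges overlapped. These levels rest on 10 and 14 reads, a ratio of 1.36 for FOXA1 siRNA over control siRNA after scaling for depth. The exact 95% interval of that ratio, for counting error only, ran from 0.561 to 3.41 and included 1.

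SPRR1A and SPRR1B encode small proline-rich proteins that keratinocytes make as they differentiate. SPRR1A was at 3.80, 6.05 and 4.18 normalized counts in the control samples, against 4.29, 12.9 and 3.56 after FOXA1 siRNA. A single library, FOXA1 siRNA replicate 2, lay above the rest, with 17 of the 24 SPRR1A reads of its group. The pooled ratio was 1.66 (exact 95% interval 0.825 to 3.47, counting error only). SPRR1B was at 10.5, 2.02 and 4.18 in the control samples, against 5.36, 6.83 and 5.93 after FOXA1 siRNA. Here the highest and the lowest value both belonged to control samples, and the FOXA1 siRNA samples lay between them. The pooled ratio for SPRR1B was 1.08 (0.533 to 2.22). The library highest for SPRR1A, FOXA1 siRNA replicate 2, had the highest SPRR1B value of its group (6.83), below control siRNA replicate 1 (10.5).

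These paralogs could exchange a few reads if reads were short enough to lie within a stretch that both carry. The annotated SPRR1A transcript, 270 bases on chromosome 1 (GRCh38, chr1:152985231-152985500, plus strand, single exon, coding sequence only in GENCODE 29), is shown because its repeats are where a read could be assigned to either gene. Capitals mark the run of 74 bases, positions 88 to 161 from the first base of the transcript, that SPRR1B carries too.
SPRR1A: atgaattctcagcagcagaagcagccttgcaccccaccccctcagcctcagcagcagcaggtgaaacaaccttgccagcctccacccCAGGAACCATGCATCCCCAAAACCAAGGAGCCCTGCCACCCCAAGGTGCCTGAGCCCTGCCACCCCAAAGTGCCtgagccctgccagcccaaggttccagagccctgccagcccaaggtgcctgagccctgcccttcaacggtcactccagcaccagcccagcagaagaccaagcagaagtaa
Of the 50-base windows of SPRR1A, 88.7% occurred in no other annotated gene, and of those of SPRR1B 95.6%. At 100 bases every window of both was their own. The read length is not given in the sources used here, so both sizes are stated.

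SPRR2A and SPRR2D belong to a tandem array of near copies that bridge envelope proteins. Neither had a read in any library. With 0 reads counted, up to 3 reads over the 54442387 of the control libraries are allowed, a mean normalized count of up to 1.00, and up to 0.970 over the 60130906 reads of the FOXA1 siRNA libraries. These limits cover counting error only. SPRR2A shared part of its sequence with SPRR2B, SPRR2D and SPRR2E, and 67.3% of its 50-base windows (79.7% at 100 bases) were its own. For SPRR2D the shares were 73.2% and 95.4%. How the authors treated reads that fit several genes is not given in the sources used here. SPRR2B, SPRR2E, SPRR2F and SPRR2G were also at 0 in all 6 libraries. The part of shared reads in these zeros was not tested. SPRR3, which encodes the proline-rich protein typical of oral and oesophageal lining, had a single read, in FOXA1 siRNA replicate 2, although every 50-base window of its transcript was unique.

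Of the crosslinking enzymes, TGM1, the membrane-anchored transglutaminase of keratinocytes, had the clearer signal. The control samples had 13.3, 15.1 and 26.2 normalized counts of TGM1, and the FOXA1 siRNA samples 33.2, 19.7 and 22.5, or 18.2 ± 6.95 against 25.2 ± 7.12 (SD, n = 3 each). The highest sample was FOXA1 siRNA replicate 1, yet control siRNA replicate 3 exceeded the other two FOXA1 siRNA samples, so the groups overlapped. The difference was 0.47 ± 0.33 on the log2(normalized count + 1) scale (SE; limma adjusted p = 0.235), with a 95% interval from a fold of 0.871 to one of 2.21. It lay within the spread of the replicates, and an exact two-sided permutation test gave p = 0.3, where 3 against 3 samples cannot go below 0.1. By read counts the ratio was 1.36 (54 and 76 reads, exact 95% interval 0.950 to 1.97). TGM1 stayed without a call under all alternatives that could test it, including the removal of control siRNA replicate 3 (log2 fold change 0.75, limma adjusted p = 0.0872), the library with its highest control value. TGM3, the soluble transglutaminase that matures by cleavage, had no read in any library, and no window of its transcript was shared with another gene.

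CNFN encodes cornifelin, a small protein built into envelopes in the upper layers. It was at 27.6, 18.2 and 15.7 normalized counts in the controls, against 22.5, 21.2 and 27.3 after FOXA1 siRNA, or 20.5 ± 6.27 against 23.7 ± 3.18 (SD, n = 3 each). The single highest value was a control, replicate 1, and all 3 FOXA1 siRNA samples fell inside the control range. On the log2 scale the difference was 0.23 ± 0.31 (SE; limma adjusted p = 0.553; exact two-sided permutation p = 0.5), with a 95% interval from 0.759-fold to 1.82-fold. RHCG, which moves ammonium across the membrane of suprabasal cells in oesophageal lining, had 3 reads in all, each in FOXA1 siRNA replicate 1 and none in the controls. Both of its groups were at or under the limit of 3 reads, so no fold is given.

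No member was called higher or lower by limma, out of 2 tested, and none had an unadjusted p under 0.05. The same held for edgeR's quasi-likelihood test and DESeq2 on the recovered reads. Over all 18460 genes tested, 51.8% were called, 26.8% higher and 25.0% lower. Fewer genes were called at the level of these members. Of the 1671 genes with a mean of 15 to 30, a band chosen after the members' values were seen, 26.6% were called, and the median log2 fold change of the band was -0.17. The median of the 2 tested members was 0.35, against 0.0039 over all genes tested. With no filter on low values the 7 members with reads entered the fit, and 0 of 7 were called by limma or by edgeR, where 27.9% and 28.2% of all 34463 genes with reads were called, and 3.61% of those with a mean under 10 by limma. In the authors' deposited table the adjusted p was 0.477 for TGM1, 0.781 for CNFN, 0.772 for IVL, 0.648 for SPRR1A and 0.939 for SPRR1B, and no adjusted p was given for the other 5 members.

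The 5 members with more than 3 reads all had a higher mean with FOXA1 siRNA, each with overlapping samples. The exact 95% interval of the read ratio included 1 for each of the 5. The share of all genes with a higher mean was not counted, so the shared direction is given as a description only. The normalized counts of all members summed to 57.1, 46.4 and 53.3 per control sample and to 71.8, 65.3 and 66.4 per FOXA1 siRNA sample. The sums of the groups did not overlap, as was the case for 57.6% of the single genes tested. As RPM, which scales by the reads of the library alone, the sums were 3.12, 2.57 and 2.95 in the controls, against 3.75, 3.34 and 3.39 after FOXA1 siRNA. The exact 95% intervals of single libraries were wide, from 1.88 to 3.42 for control siRNA replicate 2 and from 2.90 to 4.76 for FOXA1 siRNA replicate 1, the extremes of the set. The sum is given as a description with no test, and most of it is TGM1 and CNFN.

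**Figure D2:**
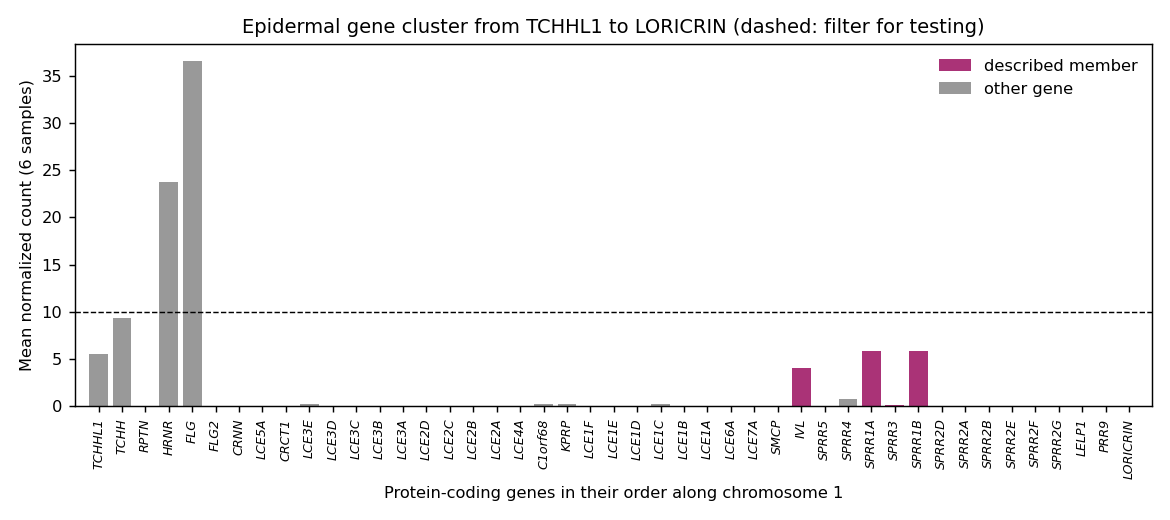
Mean normalized count over the 6 samples (vertical axis) of the 45 protein-coding genes from TCHHL1 to LORICRIN, in their order along chromosome 1; purple bars are genes described here and the dashed line is the filter of 10. Only HRNR and FLG reach the filter, and the bars of the SPRR2 array and of all but 2 of the LCE genes are at 0.

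The involucrin and SPRR genes lie next to each other in the epidermal gene cluster of chromosome 1. IVL spans 152908545 to 152911886 on the plus strand (GRCh38, GENCODE 29), and SPRR1A, SPRR3 and SPRR1B follow it on the same strand. SPRR2D, from 153039725 to 153041931, and SPRR2A, from 153056113 to 153057537, lie beyond them on the minus strand. Of the 45 protein-coding genes in the 1.18 Mb from TCHHL1 to LORICRIN, 32 had no read, 11 had reads but a mean under 10, and 2 reached it. In the whole table, which holds every gene type, 27396 of 61859 genes had no read. By mean count, not corrected for length, SPRR1A (5.80), SPRR1B (5.80) and IVL (4.04) came, with TCHH and TCHHL1, after FLG (36.6) and HRNR (23.8). Per kilobase of the longest annotated transcript the order differed. Over all 6 samples SPRR1A (21.5) and SPRR1B (9.35) then lay above FLG (2.87) and HRNR (2.47), and IVL (1.87) lay below them. The annotated transcripts are 270 bases for SPRR1A and 12747 for FLG. The other members lie elsewhere, TGM1 on chromosome 14, TGM3 on chromosome 20, CNFN on chromosome 19 and RHCG on chromosome 15. No member overlaps another annotated gene on either strand.

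**Figure D3:**
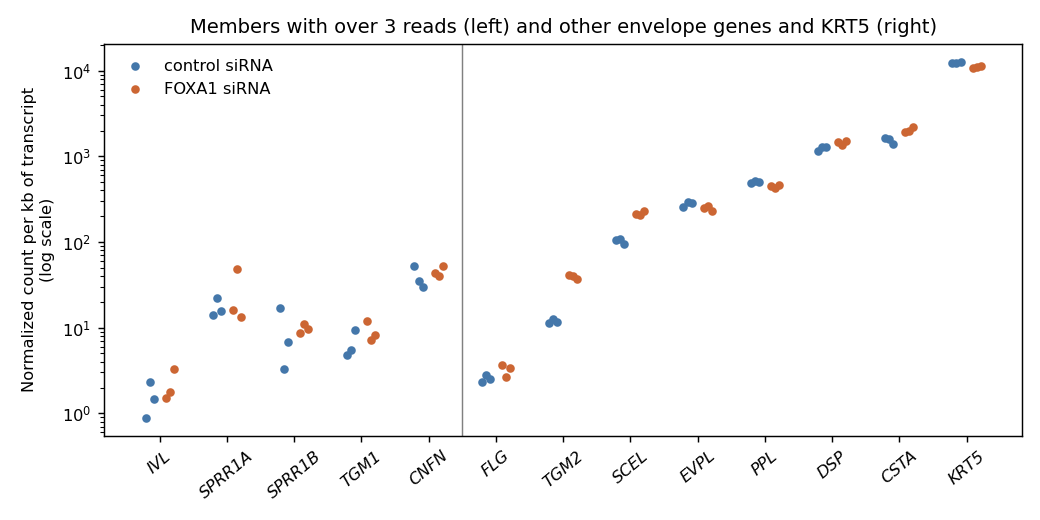
Normalized counts per kilobase of the longest annotated transcript (logarithmic vertical axis), 1 point per sample, for the 5 members with more than 3 reads (left of the line) and for other envelope genes and KRT5 (right). By group means IVL lies lowest and CNFN highest among the members, while in FOXA1 siRNA replicate 2 the point of SPRR1A lies above that of CNFN. All 5 lie below SCEL, EVPL, PPL, DSP, CSTA and KRT5 in every sample.

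Levels were compared between genes per kilobase of the longest annotated transcript. CNFN had the highest means, at 39.2 ± 12.0 normalized counts per kb in the controls and 45.3 ± 6.08 after FOXA1 siRNA (SD, n = 3 each). SPRR1A followed at 17.3 ± 4.46 and 25.6 ± 19.2, a value that its short annotated transcript raises. SPRR1B stood at 8.96 ± 7.07 and 9.74 ± 1.20, TGM1 at 6.55 ± 2.50 and 9.06 ± 2.57, and IVL at 1.56 ± 0.735 and 2.19 ± 0.978. The samples of SPRR1A and SPRR1B overlapped with control siRNA but not with FOXA1 siRNA, where SPRR1A was higher. SPRR1B and TGM1 overlapped in both groups. CNFN lay above TGM1 and TGM1 above IVL in every sample. None of these orders was tested. Over both groups, 49.1% of protein-coding genes were lower per kb than CNFN, 43.0% lower than SPRR1A, 37.3% lower than TGM1 and 31.1% lower than IVL. Genes without reads are among those counted, and SPRR3, with 1 read in all, already lay above 20.3%. DSP, the desmosomal anchor of the envelope, was at 1251 per kb with control siRNA, above every member in every sample.

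Scaffold and corneodesmosome genes ranged widely in level, from DSG1 at 2.24 normalized counts per kb with control siRNA to DSP at 1251. Of 9 scaffold and corneodesmosome genes, 8 could be tested, 2 of them higher and 3 lower with FOXA1 siRNA (median log2 fold change 0.01). These shares, and those of the lists that follow, stand beside 26.8% of all genes tested called higher and 25.0% lower. SCEL (sciellin), an envelope precursor of stratified epithelia, rose from 320 ± 25.4 to 668 ± 40.2 normalized counts (SD, n = 3 each; 1.06 ± 0.08, limma adjusted p = 1.47e-11). DSC1, a desmosomal cadherin of upper layers with a mean of 46.5, named after its values were seen, fell (-1.33 ± 0.24). The plakins PPL (-0.16 ± 0.05) and EVPL (-0.18 ± 0.06) fell and DSP rose (0.20 ± 0.05), calls that ended when limma was run without trend and robust options (limma adjusted p = 0.0748, 0.142 and 0.0723). DSP also lost its call with equal library totals (adjusted p = 0.0982) and with quantile normalization (0.522). PPL lost it without control siRNA replicate 2 (0.0669) or FOXA1 siRNA replicate 2 (0.0572), and EVPL without control siRNA replicate 2 (0.111) or 3 (0.0855) or FOXA1 siRNA replicate 3 (0.0830).

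**Figure D4:**
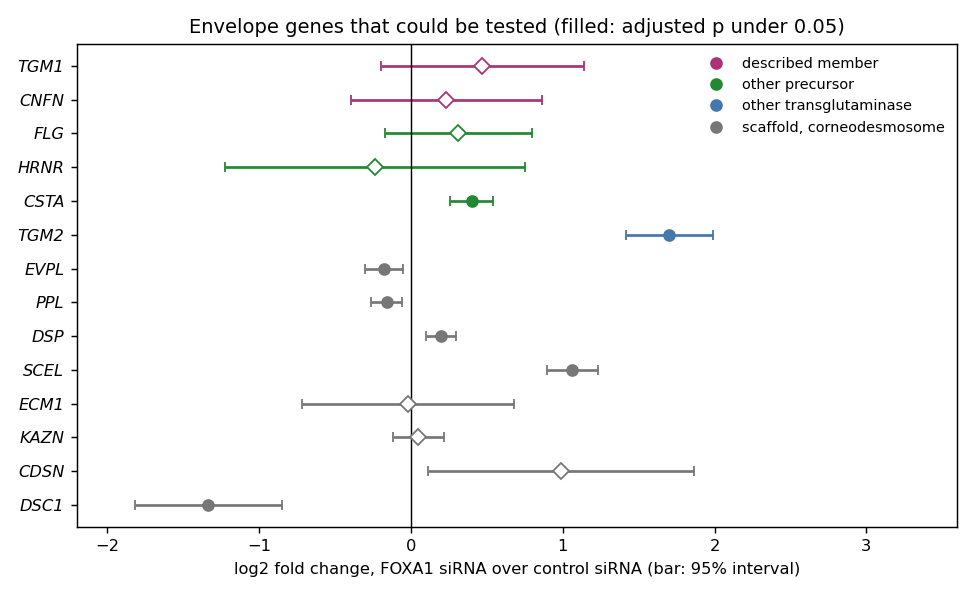
Log2 fold change of FOXA1 siRNA over control siRNA with its 95% interval (horizontal axis) for the 14 envelope genes that passed the filter; filled points had a limma adjusted p under 0.05. TGM1 and CNFN have intervals that include 0, and TGM2 lies farthest to the right at 1.70.

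The transglutaminase relative TGM2, the widely expressed tissue enzyme, was the single tested gene among the 6 other transglutaminases. It went from 58.0, 64.6 and 58.6 normalized counts in the controls to 207, 201 and 187 after FOXA1 siRNA, with no overlap. It rose by 1.70 ± 0.14 on the log2 scale (SE; limma adjusted p = 5.26e-11). Per kb, TGM2 was at 11.9 with control siRNA, where TGM1 was at 6.55, and at 39.1 with FOXA1 siRNA, where TGM1 was at 9.06. TGM5, TGM6, TGM7 and F13A1 had no read. Among 37 other envelope precursors 28 had no read, beside 27396 of the 61859 genes of every type in the table. Of these precursors 3 were tested, of which 1 rose and 0 fell. That one was CSTA, the protease inhibitor cystatin A, which went from 1267 ± 122 to 1669 ± 123 (SD, n = 3 each; 0.40 ± 0.07, limma adjusted p = 2.96e-05). FLG (filaggrin) was not called (0.31 ± 0.24, limma adjusted p = 0.279).

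Genes that act around the envelope were measured more fully than the members. Of 21 lipid envelope genes, which make and carry the barrier lipids, 15 were tested, 3 rose and 9 fell (median log2 fold change -0.58). LIPK (-2.31 ± 0.22), the lipid transporter gene ABCA12 (-1.24 ± 0.10) and the lipoxygenase gene ALOXE3 (-0.99 ± 0.22) fell, and SLC27A4 (0.84 ± 0.08), UGCG (0.42 ± 0.08) and ABHD5 (0.37 ± 0.08) rose. Of 33 other late squamous genes 16 were tested, 2 rose and 9 fell (median -0.62). CLCA2 (-1.97 ± 0.14), SERPINB13 (-1.33 ± 0.20) and CLIC3 (-0.74 ± 0.07) fell, while EMP1 (0.75 ± 0.07) and LYPD3 (0.28 ± 0.07) rose. Of 41 regulators of squamous differentiation 36 were tested, 10 rose and 13 fell (median 0.05). JUN, a subunit of AP-1, rose (1.08 ± 0.08), as did GRHL1 (0.70 ± 0.10) and OVOL2 (0.65 ± 0.15), whose call ended without control siRNA replicate 1 (adjusted p = 0.0729) or 3 (0.0602). GRHL3, a grainyhead factor of terminal differentiation, fell (-1.16 ± 0.14), as did CEBPB (-0.67 ± 0.07) and GATA3 (-0.58 ± 0.05). Of the relatives of RHCG and CNFN, PLAC8, which shares the cysteine-rich domain of CNFN, rose (0.80 ± 0.14), RHBG had a mean under 10 and RHAG had no read.

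The genes whose pattern over the 6 samples was most like CNFN, by Pearson's r of log2(normalized count + 1), were BCL2L13 (r = 0.983), FAM204A (r = 0.978) and PAAF1 (r = 0.975). Those most like TGM1 were ABHD11 (r = 0.978), ZFYVE19 (r = 0.969) and PINX1 (r = 0.966). They are the highest of 14513 genes over only 6 samples from the same libraries, and were chosen for that. None of the 6 was called (limma adjusted p from 0.246 to 0.485). TGM1 and CNFN did not follow each other (r = -0.23 over the 6 samples).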

How the data were processed

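Total RNA of 6 samples (3 control siRNA, 3 FOXA1 siRNA, grouped by title) was sequenced. Per the submitters' processing notes, the tools were HISAT2 and DESeq2 (no versions) and the builds GRCh38 and GRCm38 (no roles); how reads were counted, and whether strand was kept, is not given in the sources used here. The deposited table gives a normalized signal per gene and sample (a gene count over a size factor), and, from the authors' own test, a log2 fold change and its error, a score, a p-value and its adjusted value. Among its 61862 lines 3 were broken and were left out. In each library 100% of values were whole multiples of 1 step to within 0.01 read, so reads were recovered (16510125 to 25732569 per library). On the table with its broken lines, an automatic step test accepted 4 of the 6 libraries. It did not accept control siRNA replicate 2, whose step is close to 1, or FOXA1 siRNA replicate 2, where a broken line adds a stray low value. The count tests, read ratios, RPM values and limits for genes without reads use these 2 libraries too.

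Limma 3.58.1 (R 4.3.3; trend and robust options) was run on log2(normalized count + 1) for the 18460 genes with a mean of at least 10, with Benjamini-Hochberg adjustment over all of them and a threshold of 0.05. The added 1 makes fold changes of low genes too small. EdgeR 4.0.16 and DESeq2 1.42.0 on the recovered reads, other pseudocounts, filters and scalings, the replicate number as a block and leaving out each sample were alternatives; edgeR with no filter was added after the data were seen. The fit was also run on simulated data as a check of the code. Its outcome is not reported here, and no statement on the members rests on it. Lengths, positions and shared windows came from GENCODE 29 (GRCh38), and single values were tested by exact permutation in scipy 1.17.1. The exact 95% intervals are Clopper-Pearson intervals and cover counting error only.

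The members and gene lists were chosen with earlier results of these data known. Named genes were the members, FOXA1, up to 3 rises and 3 falls per list among called genes with a mean of at least 50, and the 3 genes most like each of the 2 most abundant members. Genes of these lists named for having no read or no call, DSC1 (mean under 50) and the marker genes were added after their values were seen.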

Additional observations from a re-analysis of the deposited data

How the results depend on the processing

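The absence of calls among the members held under all alternatives: 0 were called higher and 0 lower with pseudocounts of 0.5 and 5, no filter, equal library totals, quantile normalization, edgeR, DESeq2, limma without trend and robust options, the replicate block and each sample left out. With a mean of at least 50 required, no member could be tested. The log2 fold change of TGM1 ranged from 0.26 to 0.75 (adjusted p from 0.0798, with quantile normalization, to 0.597) and that of CNFN from 0.07 to 0.46 (0.232 to 0.886). The count over all genes ranged from 8174 (limma without trend and robust options) to 9731 (edgeR with no filter) around 9571, and was 8549 to 9213 with a sample left out.

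The median log2 fold change of all genes was -0.093 with equal library totals against 0.0039 as deposited. Under equal totals the uncalled differences of ABHD11 (-0.0126), BCL2L13 (-0.0493), FAM204A (-0.0312), PAAF1 (-0.0345) and PINX1 (-0.0112) turned negative. That of BCL2L13 did so with quantile normalization too (-0.0216). The deposited values summed to 18080921 to 18291465 per control sample and to 19174648 to 19582289 per FOXA1 siRNA sample. Equal totals thus lower FOXA1 siRNA values relative to control values. The cause of the differing totals, and of the change with quantile normalization, was not tested.

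Same-numbered samples did not deviate together (correlations of -0.01, 0.01 and -0.01), so no effect shared by equal replicate numbers was seen. How the replicates were set up cannot be read from these correlations. The replicate block gave 9332 calls, and TGM1 and CNFN at 0.47 and 0.23 (adjusted p = 0.251 and 0.565). The 8 untested members had means under the filter.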
